A study of Arabidopsis thaliana with 4 samples.

Results

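Histone H2B is one of the 4 core histones that wrap DNA into nucleosomes, and the linker histone H1 binds where the DNA enters and leaves the nucleosome. In Arabidopsis thaliana H2B is encoded by a family of near-identical genes, much of whose transcription accompanies DNA replication. HIS1-3 is a small, divergent H1 gene known to be induced by drought and by abscisic acid (ABA), the hormone of water deficit, and its protein is known from guard cells. The genes described here are the H2B genes HTB11, HTB4 and AT2G28720 together with HIS1-3. These 4 genes, of 13355 genes with a probe set naming 1 gene, were found by gene identifier in the platform annotation, and each had 1 probe set. They were chosen by measured values. The H2B genes were chosen by their high ratio of polysomal to non-polysomal signal without stress. HIS1-3 was chosen by its high signal in polysomal RNA under dehydration relative to that without stress. Those values are given as a description only.

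Each of 4 Affymetrix ATH1 arrays held RNA of 1 kind. Dehydration-stressed plants gave polysomal RNA (labelled DSPS), which carries 2 or more ribosomes, and non-polysomal RNA (DSNP), which is free or carries 1 ribosome. Plants that were not stressed gave the same fractions (NSPS and NSNP). The labels give no tissue, age, genotype or duration of stress, and no culture or plant number, so neither a tissue nor a cell type could be checked against its markers. With 1 array per group no difference was tested and no p-value is given. The number of arrays limits the precision.

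Signals are array intensities on a linear scale, brought to an equal trimmed mean on every array, and differences are on the log2 scale. A difference of 1 is a factor of 2. A polysomal to non-polysomal ratio is therefore relative to the average transcript, and it does not give the fraction of a transcript that was on polysomes. The median signal of an array lay between 185.6 and 249.6. Signals under 69.9 were raised to that lower limit, which lay close to the highest signal of probe sets for bacterial sequences not added to the samples, 70.8. A probe set was called measured when its mean log2 signal reached the median of all, 7.74, and 11373 were. All 4 histone genes passed, and none was under the lower limit on any array. HTB11 was the dimmest, with a mean log2 signal of 7.93. It passed through its polysomal arrays, since its non-polysomal log2 signals of 7.26 under dehydration and 7.29 without stress lie below the threshold, so its passing and its high ratio are not independent. As the only available measure of error, the SD of the difference between 2 probe sets of the same gene (48 genes) was 0.53 for the ratio under dehydration and 0.61 for the ratio without stress. It was 0.59 for the change of ratio, 0.43 for the effect of dehydration in polysomal RNA and 0.47 for that in non-polysomal RNA. This SD comes from the same arrays, so it leaves out all variation between plants, preparations and arrays, and a difference larger than it is not thereby shown to exceed the error.

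HTB11 had a signal of 320.5 in polysomal and 153.7 in non-polysomal RNA of dehydrated plants, and of 457.4 in polysomal and 156.5 in non-polysomal RNA of unstressed plants. HTB4 had 1646 in polysomal and 436.5 in non-polysomal RNA under dehydration, and 1285 in polysomal and 464.3 in non-polysomal RNA without stress. AT2G28720 had 1445 in polysomal and 528.2 in non-polysomal RNA under dehydration, and 1570.2 in polysomal and 542.6 in non-polysomal RNA without stress. For all 3 genes both polysomal arrays were brighter than both non-polysomal arrays, whichever the condition. HIS1-3 had 1959 in polysomal and 1390.2 in non-polysomal RNA under dehydration, and 189.0 in polysomal and 438.8 in non-polysomal RNA without stress. Its signals were ordered first by condition, both dehydration arrays lying above both arrays of unstressed plants, and the dimmest of the 4 was the polysomal array of unstressed plants.

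**Figure D1:**
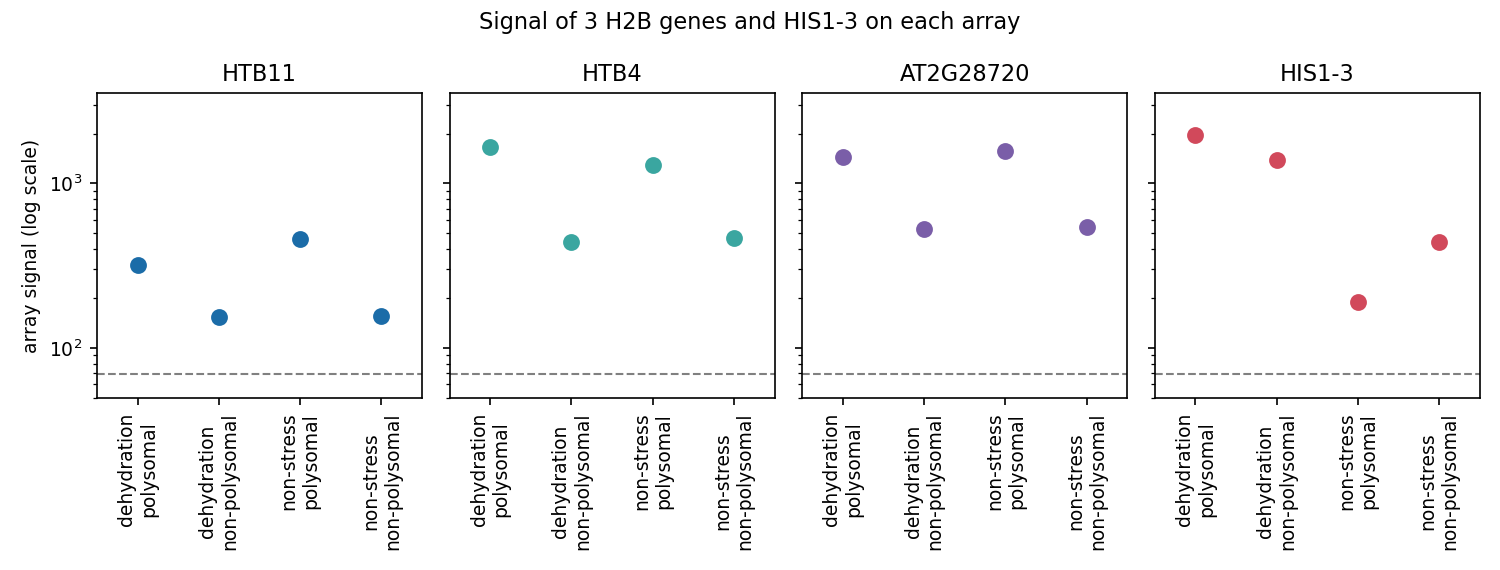
Signal (log scale) of HTB11, HTB4, AT2G28720 and HIS1-3 on the 4 arrays, 1 point per array, with the lower limit of 69.9 as a dashed line. The H2B genes are high on both polysomal arrays, while HIS1-3 is high on both dehydration arrays and lowest in polysomal RNA of unstressed plants, at 189.0.

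The comparison of polysomal with non-polysomal RNA asks which transcripts were relatively rich on several ribosomes. Under dehydration all 3 H2B genes were at least 2-fold higher in polysomal RNA, a size reached by 9.06% of the measured probe sets. HTB4 had a log2 ratio of 1.91, AT2G28720 of 1.45 and HTB11 of 1.06, or 3.77, 2.74 and 2.08 as a fold. The ratios without stress, for which these genes had been chosen, were 1.47 for HTB4, 1.53 for AT2G28720 and 1.55 for HTB11, where 8.56% of the measured probe sets reached 2-fold. The ratios under dehydration share no array with those that chose the genes, although the fractions of both conditions were made in the same study.

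The 3 genes lay within 0.08 of each other without stress, on the values by which they were chosen, and spread over 0.85 under dehydration. After quantile normalization these ranges were 0.38 without stress and 0.69 under dehydration. HTB4 and HTB11 then stood at the ends, farther apart than the SD between probe sets of 1 gene, and AT2G28720 lay between them. The spread was in the polysomal arrays. In polysomal RNA the effect of dehydration was 0.36 for HTB4, -0.12 for AT2G28720 and -0.51 for HTB11, whereas in non-polysomal RNA it was -0.09, -0.04 and -0.03 in the same order. None of the 3 was therefore 2-fold apart between conditions in either fraction. Of the measured probe sets, 5.58% were at least 2-fold lower under dehydration in polysomal and 4.56% in non-polysomal RNA. Of the values of the 3 genes only that of HTB11 in polysomal RNA was larger than the SD between probe sets. Relative to the median of all measured probe sets the non-polysomal values were -0.07, -0.02 and -0.01. Scaling on medians or on hybridization controls put the values of the 3 genes above 0. These scalings moved all probe sets up in this comparison by 0.17 and 0.30. After quantile normalization HTB4 was at -0.03, AT2G28720 at 0.01 and HTB11 at 0.25, where the median of all measured probe sets was 0.01. The change of ratio by dehydration was 0.45 for HTB4, -0.08 for AT2G28720 and -0.49 for HTB11, each smaller than the SD for that comparison and short of 2-fold. For HTB11 it was -0.60 under median scaling, -0.86 under hybridization control scaling and -0.76 after quantile normalization, all larger in size than that SD. Relative to the median of all measured probe sets it was -0.50 under the first and the second of these and -0.74 under the third. A ratio at least 2-fold lower under dehydration was seen for 1.62% of the measured probe sets. Because H2B genes are near-identical, their probe sets may share transcripts, and the difference between single genes is uncertain for that reason too.

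**Figure D2:**
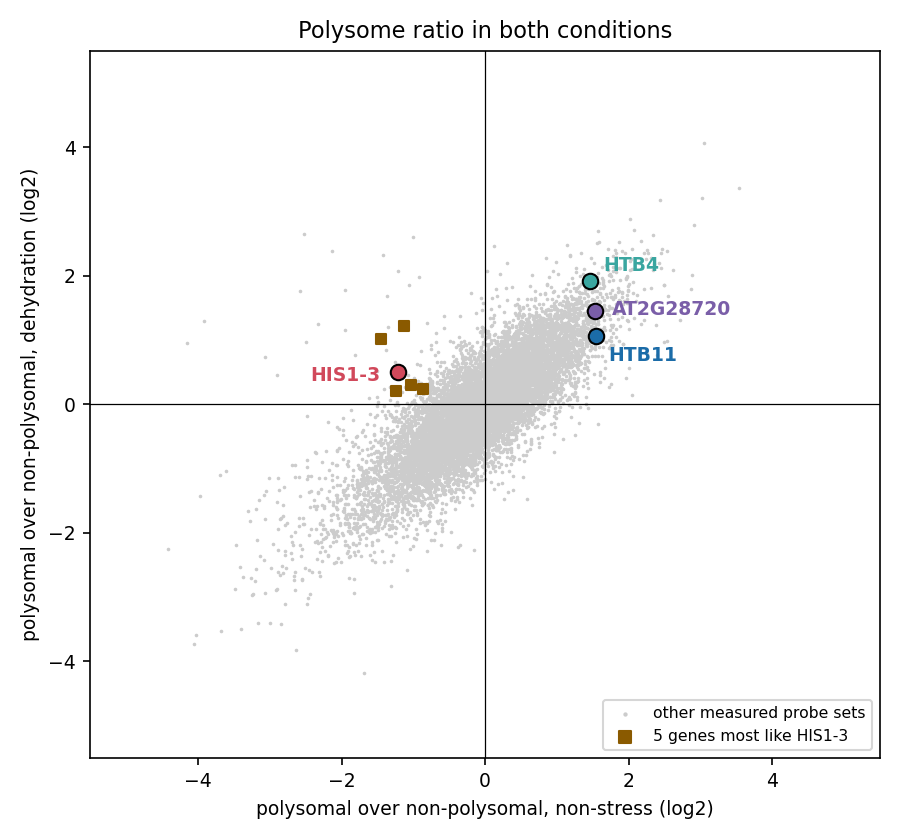
Log2 ratio of polysomal to non-polysomal signal under dehydration (vertical) against that without stress (horizontal) for 11373 measured probe sets in grey, with the 4 histone genes as circles and the 5 genes most like HIS1-3 as squares. The H2B genes lie at the upper right, between 1.06 and 1.91 under dehydration, and HIS1-3 lies left of 0 and above it, at -1.22 without stress and 0.49 under dehydration.

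HIS1-3 was on the opposite side of the H2B genes without stress. Its log2 ratio there was -1.22, a polysomal signal 0.431 times the non-polysomal one, and 11.9% of the measured probe sets were at least 2-fold lower. Under dehydration the ratio was 0.49, or 1.41-fold, which is smaller than the SD between probe sets of 1 gene. It was above that SD under median scaling, at 0.75, and under hybridization control scaling, at 0.60, and below it after quantile normalization, at 0.42. Of 1348 probe sets at least 2-fold lower in polysomal RNA without stress, 40 had a ratio above 0 under dehydration, 0.352% of all measured, and HIS1-3 was 1 of them. The change of ratio was 1.71 on the log2 scale, or 3.27-fold, and 2.80% of the measured probe sets had a change of at least 2-fold upwards. These ratios and their change use the polysomal arrays by which HIS1-3 was chosen, so they are a description and the shares of all probe sets beside them are no measure of how unusual they are. Under other scalings of the arrays the ratio without stress was -0.85 on medians, -0.74 on hybridization controls and -0.97 after quantile normalization, each short of a factor of 2. The median of all measured probe sets, -0.06 in the values reported here, stood at 0.30 on medians and 0.41 on hybridization controls. Relative to that median HIS1-3 lay at -1.15 under all 3 of these scalings, and at -1.01 after quantile normalization.

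Dehydration was then compared with non-stress within each fraction. HIS1-3 was 3.37 higher on the log2 scale in polysomal RNA of dehydrated plants, a fold of 10.4, the value for which it had been chosen. A difference of 2-fold or more upwards was seen there for 6.36% of the measured probe sets. In non-polysomal RNA, which shares no array with that value, HIS1-3 was 1.66 higher, or 3.17-fold, a direction in which 4.32% of the measured probe sets differed by 2-fold or more. Its value lay above 98.9% of them. Both fractions belong to the same conditions, so this rise is not independent of the choice. The shares beside it are no measure of how unusual it is. An increase of at least 2-fold in both fractions was found for 2.99% of the measured probe sets and, among the 4 histone genes, for HIS1-3 only. According to the experiment records each condition had a hybridization batch of its own, holding both of its arrays. The batch and the stress cannot be told apart in these values or in the change of ratio. In RNA of whole samples, more cells with a transcript and more of it per cell cannot be told apart either.

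The order of the 4 HIS1-3 signals was dehydration polysomal, dehydration non-polysomal, non-stress non-polysomal and non-stress polysomal. The step between the first and the second of these was smaller than the SD between probe sets of a gene, and the later steps were larger. For HTB4 and AT2G28720 the dehydration and non-stress arrays of the same fraction were neighbours in the order, with a step smaller than that SD. Whether any of these steps exceeds the variation between separate samples was not tested.

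**Figure D3:**
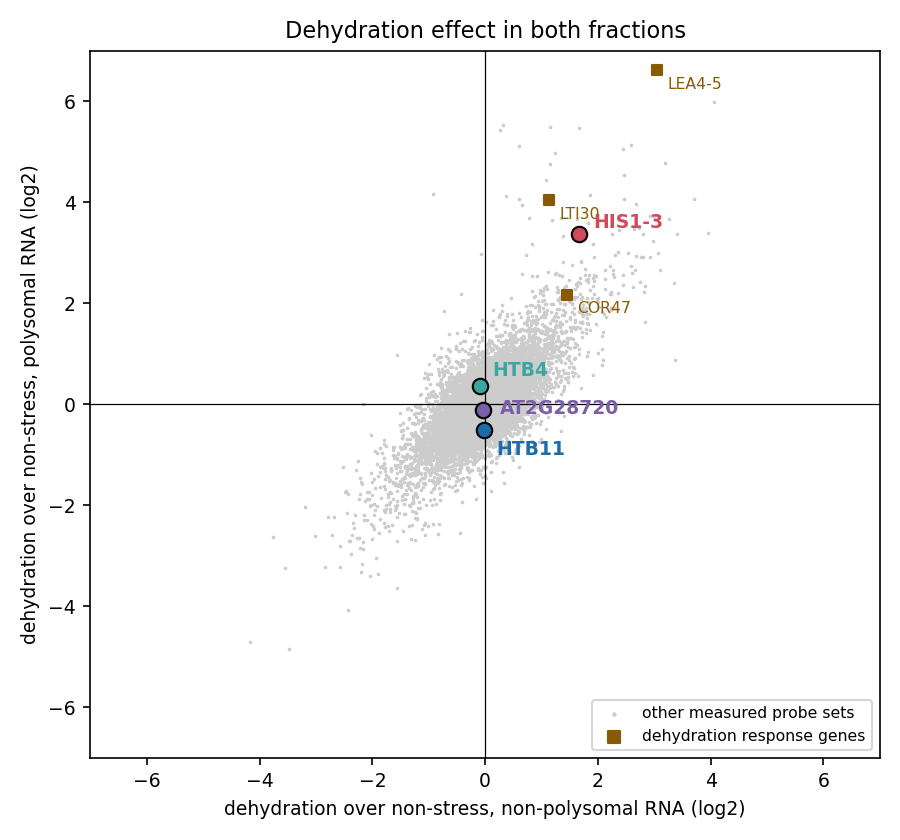
Log2 effect of dehydration in polysomal RNA (vertical) against that in non-polysomal RNA (horizontal) for 11373 measured probe sets in grey, the 4 histone genes as circles and 3 dehydration response genes as squares. HIS1-3 stands at 3.37 in polysomal and 1.66 in non-polysomal RNA, and the H2B genes lie near 0 in non-polysomal RNA, between -0.51 and 0.36 in polysomal RNA. The position of LEA4-5 is a lower bound in polysomal RNA.

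Of 11 H2B genes 10 had a probe set naming 1 gene, and 5 of these were measured. HTB1, the H2B gene with the next highest ratio without stress, had a signal of 561.9 in polysomal and 428.9 in non-polysomal RNA under dehydration, and 1039 in polysomal and 543.5 in non-polysomal RNA without stress. Its log2 ratios were 0.39 under dehydration and 0.93 without stress, short of 2-fold in both. AT2G37470 had log2 ratios of 0.16 under dehydration and 0.50 without stress. Both of these genes were lower under dehydration in polysomal RNA, HTB1 at -0.89 and AT2G37470 at -0.74, more than the SD between probe sets and short of 2-fold. In non-polysomal RNA they were at -0.34 and -0.39. Thus the 5 measured H2B genes all had ratios above 0 in both conditions, and 4 of 5 had a lower polysomal signal under dehydration, HTB4 being the exception, and both counts were the same under the other 3 scalings. Of all measured probe sets 52.1% had a ratio below 0 under dehydration and 53.2% without stress, and 50.3% were lower in polysomal RNA under dehydration. HTB11, HTB4 and AT2G28720 had been chosen for a high ratio without stress, so their ratios there are above 0 by the choice. HTB11 was called measured through its polysomal arrays, so its ratio under dehydration is not independent of its being counted. The median of the 5 was 1.06 under dehydration and 1.47 without stress, against -0.04 and -0.06 for all measured probe sets. Each median of the 5 is the value of a chosen gene, HTB11 under dehydration and HTB4 without stress. It therefore does not describe the family apart from the choice. HTB1 and AT2G37470, which were not chosen, lay below it in both conditions.

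The other 5 H2B genes were not called measured. HTB2 had 135.6 in polysomal and 52.3 in non-polysomal RNA under dehydration, and 151.0 in polysomal and 123.8 in non-polysomal RNA without stress. AT3G53650, AT3G09480 and AT5G02570 were under the lower limit on all 4 arrays. AT1G08170 exceeded it only without stress, at 79.3 in polysomal and 119.7 in non-polysomal RNA. No ratio is given for these 5 genes.

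HIS1-3 was set beside both other H1 genes, AT1G06760 and AT2G30620, which encode the major linker histones. AT1G06760 had 2457 in polysomal and 970.6 in non-polysomal RNA under dehydration, and 2122 in polysomal and 1143 in non-polysomal RNA without stress. AT2G30620 had 3059 in polysomal and 2263 in non-polysomal RNA under dehydration, and 3140.4 in polysomal and 2236 in non-polysomal RNA without stress. Neither had a 2-fold effect of dehydration: AT1G06760 was at 0.21 in polysomal and -0.24 in non-polysomal RNA, and AT2G30620 at -0.04 and 0.02. The scalings moved the non-polysomal value of AT1G06760 to 0.07 (hybridization controls) and the polysomal value of AT2G30620 to 0.02 (medians), as they moved the median of all probe sets. Their ratios were above 0 in both conditions, at 1.34 under dehydration and 0.89 without stress for AT1G06760 and at 0.43 and 0.49 for AT2G30620. Among the 3 linker histone genes HIS1-3 alone had a ratio below 0 without stress and alone was 2-fold higher under dehydration. Its rise in polysomal RNA is the value for which it was chosen, and its ratio without stress shares an array with that value. A ratio below 0 without stress was seen for 53.2% of all measured probe sets.

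**Figure D4:**
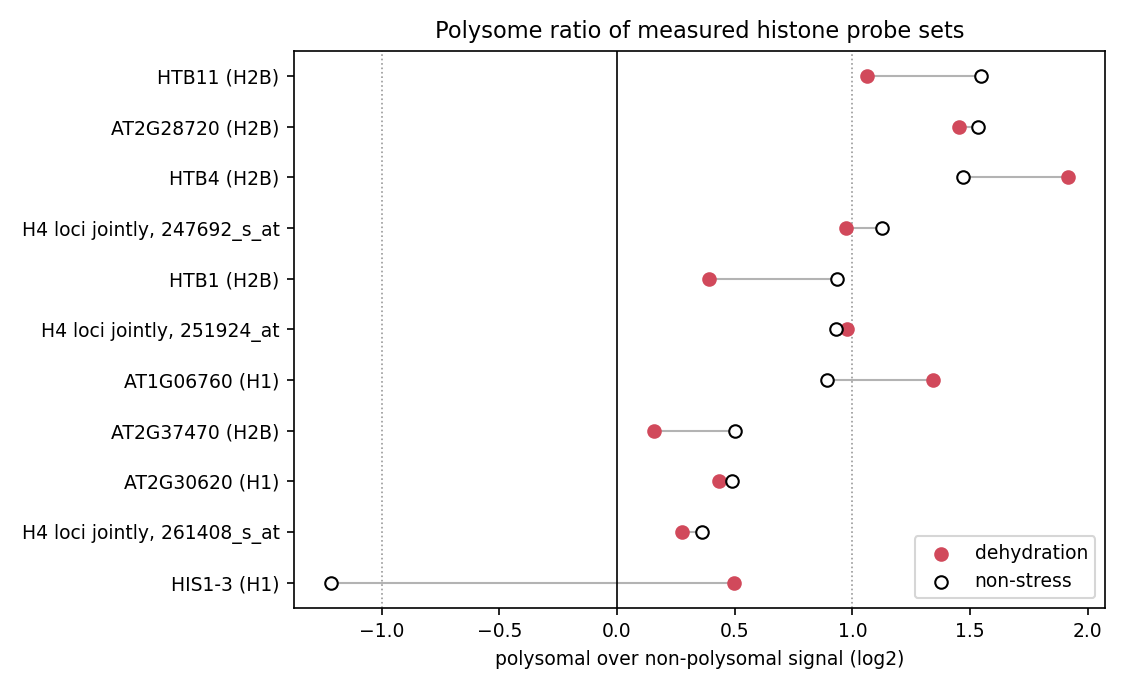
Log2 ratio of polysomal to non-polysomal signal for the measured histone probe sets, filled for dehydration and open for non-stress, with dotted lines at a factor of 2. HIS1-3 at the bottom is the only 1 of the 11 whose points lie on both sides of 0, and the 3 H2B genes at the top exceed a factor of 2 in both conditions.

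For the other core histones the annotation gave less. None of 13 H2A genes had a probe set naming it alone. Of 13 H3 genes 4 had one (AT1G13370, AT1G75600, the sperm-cell gene MGH3 and the centromere gene HTR12), and none was measured. The highest signal among these 4 was 133.8, that of MGH3 in non-polysomal RNA without stress. No H4 gene had a probe set of its own, but 5 probe sets were annotated jointly to 8 H4 genes. These 5, grouped after their values had been seen, had ratios from 0.28 to 1.52 under dehydration and from 0.36 to 1.82 without stress, so all 5 were above 0 in both conditions. Of all measured probe sets 52.1% had a ratio below 0 under dehydration and 53.2% without stress. Being annotated jointly, the 5 may share transcripts and are not 5 separate observations. Of the 5 probe sets 3 were measured, with ratios from 0.28 to 0.98 under dehydration and from 0.36 to 1.13 without stress. The highest ratio of the 5 in either condition belongs to a probe set that was not measured. All 5 were lower under dehydration in polysomal RNA, from -0.67 to -0.17, none of them 2-fold, and this held under the other 3 scalings. Of all measured probe sets 50.3% were lower in that comparison. In non-polysomal RNA they lay from -0.79 to -0.08, where 51.5% of all measured probe sets were below 0, and with 4 of 5 below 0 under median and 3 of 5 under hybridization control scaling, which move all probe sets up. The non-polysomal signal of 2 of the 5 was under the lower limit under dehydration. Their ratio there is a lower bound and their effect of dehydration in that fraction an upper bound. These 2 are the probe sets that were not measured. For the 3 measured ones the effect of dehydration lay from -0.58 to -0.17 in polysomal and from -0.43 to -0.08 in non-polysomal RNA.

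Genes that accompany histone supply were sparsely named. From the list of S-phase genes only PRL, a subunit of the replicative helicase, had a named probe set (1 of 10). It had 215.9 in polysomal and 256.9 in non-polysomal RNA under dehydration, and 356.4 in polysomal and 345.7 in non-polysomal RNA without stress. It was thus 0.72 lower under dehydration in polysomal RNA on the log2 scale and 0.43 lower in non-polysomal RNA, and its ratios were -0.25 under dehydration and 0.04 without stress. None of 7 genes of G2 and M phase was named. Whether a different number of dividing cells enters the H2B values was not tested. Of 10 histone chaperone genes 2 were named. SGA2, which hands H3 and H4 to assembling nucleosomes, had ratios of -0.47 under dehydration and -0.28 without stress, and ASF1B, of the same kind, was not measured. UBP26, an enzyme that removes ubiquitin from H2B, was the only 1 of 6 genes of H2B ubiquitination with a named probe set, and it was not measured. Neither PRL nor SGA2, the measured genes of these lists, was 2-fold apart between fractions in either condition. The same holds for most measured probe sets. Under dehydration 1030 of 11373 were at least 2-fold higher and 1323 lower in polysomal RNA, and without stress 8.56% were higher and 11.9% lower.

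HIS1-3 was also set beside dehydration and ABA response genes, of which 3 of 23 were named, and all 3 were measured. LEA4-5, a late embryogenesis abundant protein gene, had 6895 in polysomal and 2910 in non-polysomal RNA under dehydration, and 63.0 in polysomal and 352.4 in non-polysomal RNA without stress. The dehydrin gene LTI30 had 3946 in polysomal and 996.4 in non-polysomal RNA under dehydration, and 240.3 in polysomal and 455.2 in non-polysomal RNA without stress. Both shared with HIS1-3 the order of all 4 signals, the polysomal array of unstressed plants being the dimmest. COR47, another dehydrin gene, differed in having a polysomal signal above the non-polysomal one in both conditions, with log2 ratios of 2.11 under dehydration and 1.38 without stress. All 3 were at least 2-fold higher under dehydration in both fractions, as were 2.99% of the measured probe sets. The list was drawn up for response to dehydration and ABA, with earlier results of these data known. The count is therefore a description only. The medians of the 3 genes were 4.04 in polysomal and 1.45 in non-polysomal RNA. The polysomal median is the value of LTI30, and LEA4-5 enters it with a lower bound. The corresponding values of HIS1-3 were 3.37 and 1.66.

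The genes whose pattern over the 4 arrays was most like each of these were sought by the Euclidean distance between log2 signals after each gene's own mean had been subtracted, over 5916 probe sets. Nearest to the mean of the 3 H2B genes were GT72B1, a glycosyltransferase gene, at 0.07, AT2G30060 at 0.10, AT2G15020 at 0.12, AT5G59540 at 0.13 and AT4G17520 at 0.15, where the median distance was 1.72. GT72B1 had 1720 in polysomal and 624.1 in non-polysomal RNA under dehydration, and 1912 in polysomal and 628.1 in non-polysomal RNA without stress. Between themselves the H2B genes were 0.34 (HTB11 and AT2G28720), 0.39 (HTB4 and AT2G28720) and 0.73 (HTB11 and HTB4) apart. Nearest to HIS1-3 were ZW9 at 0.41, AT4G14270 at 0.42, AT4G33150 at 0.47, AT1G16850 at 0.51 and XERICO, a RING-finger gene that raises ABA levels, at 0.63, where the median distance was 2.80. XERICO had 5883 in polysomal and 4803 in non-polysomal RNA under dehydration, and 984.4 in polysomal and 2022 in non-polysomal RNA without stress. Its ratio was 0.29 under dehydration and -1.04 without stress. With 4 arrays, closeness of this kind is a description only.

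Scaling on medians or on hybridization controls moved the ratios of all 4 genes by the same amount, while quantile normalization moved them unequally. For the 3 H2B genes the ratio under dehydration ranged from 1.06 to 2.17 over the settings tried, and the ratio without stress from 1.47 to 2.02, so each stayed at or above a factor of 2. HIS1-3 stayed above 0 under dehydration, from 0.42 to 0.75, and below 0 without stress, from -1.22 to -0.74. Its effect of dehydration ranged from 3.16 to 3.43 in polysomal and from 1.66 to 1.97 in non-polysomal RNA.

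**Figure D5:**
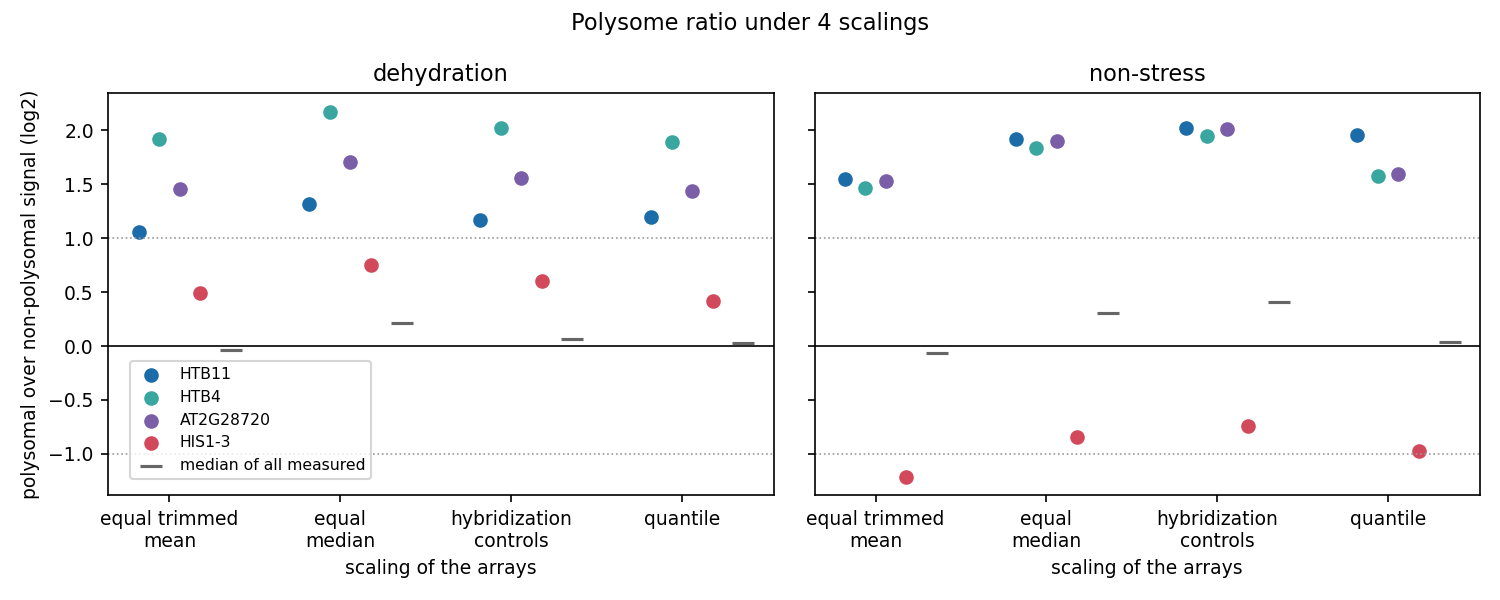
Log2 ratio of polysomal to non-polysomal signal of the 4 genes under 4 scalings of the arrays, for dehydration on the left and non-stress on the right, with the median of all measured probe sets as a dash and dotted lines at a factor of 2. The H2B genes stay above the upper dotted line, and HIS1-3 without stress lies below the lower one at -1.22 only with equal trimmed means.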

How the data were processed

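Both RNA fractions of both conditions were measured on 4 arrays, of the ATH1 type per the file headers. The deposited table gives 22810 probe sets 1 intensity each per array, linear in scale, with a trimmed mean near 500 on every array. The scale and this mean were read from the values. No source used here names the software that summarised the probes. Here each array was scaled to an equal mean after trimming 2% at either end, signals were raised to the lower limit (the median over arrays of percentile 25), and log2 differences were formed for 5 comparisons. The 64 control probe sets entered the scaling and the lower limit, and were left out of the filter and of the measured probe sets. No test was possible with 1 array per group.

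By the platform annotation, possibly out of date, 13513 probe sets had 1 gene symbol, 503 several and 8730 none, and 13436 were matched to the TAIR10.1 gene table for current names. Probe sets with several symbols were used only for the H4 genes as a group. Genes named are the 4 members, the other histone genes, up to 3 per context list and the 5 most alike by distance, whose brightest array reached 4 times the limit. The members and lists were chosen with earlier results of these data known. Alternatives comprised 3 other scalings, 2 lower limits, 2 filters and averaging of probe sets. Calculations were tested on simulated arrays. Python 3.11.15, numpy 2.4.6 and pandas 2.3.3 were used.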

Additional observations from a re-analysis of the deposited data

Results flagged for a closer look

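The polysome ratio of HIS1-3 lay on opposite sides of 0 in the 2 conditions, at 0.49 under dehydration and -1.22 without stress. For 3 other genes the effect of dehydration lay on opposite sides of 0 in the 2 fractions. HTB4 was at 0.36 in polysomal and -0.09 in non-polysomal RNA, AT1G06760 at 0.21 and -0.24, and AT2G30620 at -0.04 and 0.02. None of these differences was tested, since each group has 1 array, and the 6 values of HTB4, AT1G06760 and AT2G30620 are smaller than the SD between probe sets of a gene, 0.43 in polysomal and 0.47 in non-polysomal RNA.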

How the results depend on the processing

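No paired analysis was possible because each group has 1 array, and for the same reason no array could be left out. Over 8 alternatives the H2B median and HIS1-3 moved by less than the SD between probe sets of a gene in all 5 comparisons. Neither gave another sign except the H2B median in non-polysomal RNA, -0.04, which was 0.13 under median scaling, 0.27 under hybridization control scaling and 0.01 after quantile normalization. HTB11 was not measured with the filter at percentile 75, so that filter gave no value for it or for the H2B median. No histone gene named here has a second probe set, so averaging probe sets left these values as they were.

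Counts of probe sets at least 2-fold apart depended more on the setting, which changes the background the genes are read against. For the ratio without stress they were 2087 higher and 657 lower under median scaling, 2489 higher and 555 lower under hybridization control scaling, 2630 lower with no filter and 556 lower with the filter at percentile 75, against 973 higher and 1348 lower in the report. For the ratio under dehydration they were 1779 higher and 781 lower under median scaling, 2022 lower with no filter, and 627 higher and 617 lower at percentile 75, against 1030 higher and 1323 lower. For the change of ratio they were 208 higher and 293 lower under median scaling, 103 higher and 869 lower under hybridization control scaling, 861 higher and 358 lower with no filter, and 102 higher and 79 lower at percentile 75, against 318 higher and 184 lower. For dehydration in polysomal RNA they were 377 higher and 337 lower at percentile 75, against 723 higher and 635 lower. For dehydration in non-polysomal RNA they were 771 higher under median scaling, 1094 higher and 244 lower under hybridization control scaling, 1018 lower with no filter, and 293 higher and 250 lower at percentile 75, against 491 higher and 519 lower. The filters differ in how many probe sets they test. Median and hybridization control scaling moved the median of all measured probe sets by 0.37 and 0.48 for the ratio without stress. For the change of ratio they moved it by -0.11 and -0.37, against an unchanged 2-fold threshold. Whether anything beyond these shifts entered the counts was not tested.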

Other observations

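Of the 40 probe sets that were at least 2-fold lower in polysomal RNA without stress and above 0 under dehydration, 21 named 1 gene. HIS1-3 was among them, and so were 4 of the 5 genes nearest to it in pattern. The 5 genes were picked for closeness to HIS1-3 on the same 4 arrays that define the 40. Their presence among the 40 therefore follows largely from how they were picked. ZW9 had a ratio of 1.01 under dehydration and -1.46 without stress, AT4G33150 of 0.20 and -1.24, and AT1G16850 of 1.21 and -1.13, its polysomal signal without stress being under the lower limit. The fifth gene, AT4G14270, had a ratio of 0.24 under dehydration and -0.87 without stress.

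In the order of protein-coding genes along the chromosomes, AT2G28720 lies 2 genes from the H4 gene HIS4, HTB4 lies 5 genes from the H2A gene HTA6 and 6 from the H4 gene AT5G59970, and HTB11 lies 5 genes from the H2B gene HTB9. The nearest measured and named genes on either side, looked up to 10 genes away after the values had been seen, were none of them 2-fold higher in polysomal RNA. Of all measured probe sets 9.06% reached that size under dehydration and 8.56% without stress. With so few neighbours, finding none of that size says nothing about these regions. AT2G28790, 6 genes from AT2G28720, had 0.25 under dehydration and 0.57 without stress. AT5G59940, 3 genes from HTB4, had -0.30 under dehydration and -0.59 without stress. MSRA5, 2 genes from HIS1-3, had -1.74 under dehydration and -1.43 without stress, and its effect of dehydration was -0.02 in polysomal and 0.29 in non-polysomal RNA.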
